A study of Arabidopsis thaliana with 12 samples.

Results

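Arabidopsis thaliana holds a set of transcription factor genes that respond within minutes to cold, wounding, touch, reactive oxygen and microbial signals. This report describes 10 of them in seedlings that carry mutations in 1 or both of a pair of genes for enzymes acting on the 5′ ends of RNA. The 10 genes were taken by locus identifier: ORA47 (AT1G74930), CBF1 (AT4G25490), CBF2 (AT4G25470), CBF3 (AT4G25480), ZAT10 (AT1G27730), ZAT12 (AT5G59820), ERF5 (AT5G47230), ERF6 (AT4G17490), ERF104 (AT5G61600) and ERF105 (AT5G51190). They are 10 of the 37184 genes with a count in each library, and all 10 were among the 21974 genes that passed the filter on low counts. The set was assembled with earlier results of these libraries known. ORA47 in particular was chosen from its difference between dxo1-2 and Col-0 and from the interaction of the mutations, so those values are given below as a description without a test. The interaction uses every library, so the p values of all members below are a description too.

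Total RNA was sequenced from 21-day-old seedlings of 4 genotypes, with 3 libraries each and 12 in all. Besides the wild type Col-0 these were the mutants dxo1-2, xrn3-8 and their combination dxo1-2 xrn3-8 (here the double mutant), and no treatment or stress was applied per the labels. DXO1 encodes the plant member of a family of enzymes that remove non-canonical caps from RNA, and XRN3 encodes a nuclear 5′-to-3′ exoribonuclease. The labels name the alleles without describing the lesions, and they give neither the hour of harvest nor a batch. RNA was not separated by tissue, and fewer cells of a type and less RNA per cell cannot be told apart in such samples. Levels of root markers, most of them very low, are given below, and the share of root RNA is not known.

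ORA47 and CBF1 to CBF3 belong to the DREB branch of the AP2/ERF family of DNA-binding proteins. ORA47 is known as an activator of jasmonate synthesis genes, and the CBF proteins bind the CRT/DRE element in front of cold-regulated genes such as RD29A. ZAT10 and ZAT12 are C2H2 zinc finger proteins of the responses to oxidative stress, light and salt. ERF5, ERF6, ERF104 and ERF105 form a group of ethylene response factors, several of which are substrates of the stress-activated kinases MPK3 and MPK6. Transcripts of all these genes are known to be short-lived and to vary with the time of day or with handling of the plants.

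The stretches in front of the genes are printed for 5 members, ORA47 because it had the lowest value of the set in the interaction, and CBF1, CBF2, CBF3 and ZAT12 because they share a short word that the other members lack there. Each sequence is the 250 bases before the annotated start, read 5′ to 3′ on the strand of the gene from the RefSeq assembly TAIR10.1. Capitals mark the words CGCG (the core bound by CAMTA factors), CACGTG (the G-box) and AATATCT (the core of the evening element bound by clock proteins), each on either strand. The windows are chr1:28143601-28143850 on the plus strand for ORA47, chr4:13022997-13023246 on the minus strand for CBF1, chr4:13016236-13016485 on the minus strand for CBF2, chr4:13019401-13019650 on the minus strand for CBF3 and chr5:24102564-24102813 on the plus strand for ZAT12.
ORA47: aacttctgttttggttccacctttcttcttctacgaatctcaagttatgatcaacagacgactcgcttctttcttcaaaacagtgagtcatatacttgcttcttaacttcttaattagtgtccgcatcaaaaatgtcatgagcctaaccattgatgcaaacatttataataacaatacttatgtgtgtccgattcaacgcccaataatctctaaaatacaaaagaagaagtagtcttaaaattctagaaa
CBF1: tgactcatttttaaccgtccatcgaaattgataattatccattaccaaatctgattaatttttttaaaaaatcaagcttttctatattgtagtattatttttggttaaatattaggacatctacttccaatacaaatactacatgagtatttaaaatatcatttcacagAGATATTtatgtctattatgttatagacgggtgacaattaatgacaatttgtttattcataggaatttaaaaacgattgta
CBF2: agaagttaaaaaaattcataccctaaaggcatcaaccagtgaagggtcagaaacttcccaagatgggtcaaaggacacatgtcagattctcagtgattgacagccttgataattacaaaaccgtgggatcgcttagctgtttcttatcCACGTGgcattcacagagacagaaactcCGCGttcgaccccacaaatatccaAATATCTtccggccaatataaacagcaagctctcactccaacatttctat
CBF3: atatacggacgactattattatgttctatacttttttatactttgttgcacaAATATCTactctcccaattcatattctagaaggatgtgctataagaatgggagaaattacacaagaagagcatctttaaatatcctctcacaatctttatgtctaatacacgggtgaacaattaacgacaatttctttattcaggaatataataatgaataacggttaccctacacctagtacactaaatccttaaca
ZAT12: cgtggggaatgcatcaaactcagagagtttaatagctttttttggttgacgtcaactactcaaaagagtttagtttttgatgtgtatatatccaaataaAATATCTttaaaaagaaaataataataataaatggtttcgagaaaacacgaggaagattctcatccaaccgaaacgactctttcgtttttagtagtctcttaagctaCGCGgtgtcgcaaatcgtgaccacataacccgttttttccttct

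In a search window of 250 bases before to 50 bases after the start, AATATCT was found in 4 of the 10 members, and 11.5% of 27443 promoters of protein-coding genes held it. It began 81 bases before the start of CBF1, 50 before CBF2, 198 before CBF3 and 151 before ZAT12. CBF1, CBF2 and CBF3 are neighbouring close copies, so the 4 members do not count as independent genes against that share. The related word AAAAATCT, a site of the clock protein CCA1, was in none of the 10 members and in 7.88% of all promoters. CGCG was found in 3 members against 12.95% of all promoters, 74 bases before the start of CBF2 and 44 before ZAT12. In ORA47 it began 7 bases after the first base of the gene, which lies beyond the printed window. The CBF2 match is also a match of CGCGTT, the rapid stress response element, which 3.40% of all promoters held. G-boxes stood in CBF2 and ZAT10 against 7.68% of all promoters. Of the other words searched, CCGAC (the CRT/DRE core) was in ZAT10 and ERF5 against 15.05% of all promoters, TTGACC (the W-box) was in CBF2 and ZAT10 against 14.2%, and GCCGCC (the GCC box) was in ZAT10 against 2.57%. TATAAA was in 6 members and in 52.2% of all promoters, and ERF104 matched none of the words. A match describes the letters of the window only.

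**Figure D1:**
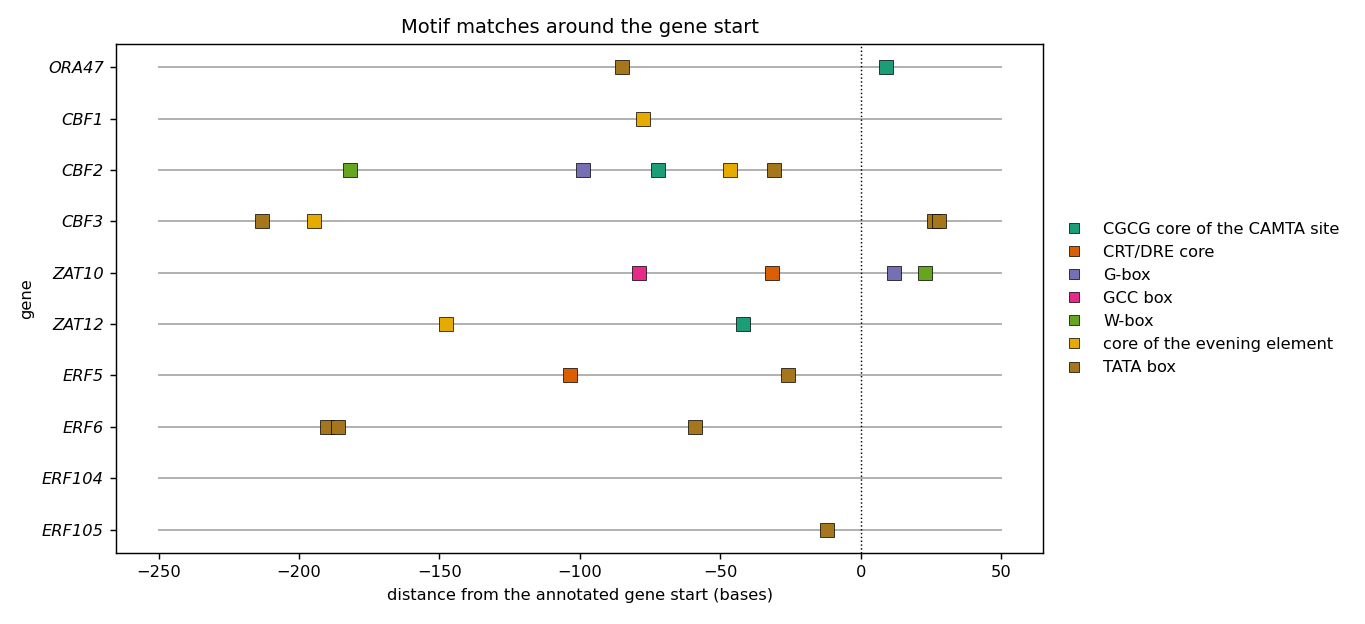
Matches of 7 of the words searched in the window of the 10 genes, plotted by distance from the annotated start in bases, with 1 line per gene and 1 square per match at its middle. The evening element core stands in CBF1, CBF2, CBF3 and ZAT12, and ERF104 has no match.

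CBF1, CBF2 and CBF3 lie side by side on the minus strand of chromosome 4, with CBF2 at chr4:13015250-13016235, CBF3 at chr4:13018010-13019400 and CBF1 at chr4:13021780-13022996 in TAIR10.1. All 10 members have a single exon and no intron in every annotated transcript, as do 18.9% of 27444 protein-coding genes. Their median exon length of 1259.5 bases compared with 1552 over protein-coding genes. The CBF genes are close copies, and the share of a gene's words of 50 bases found elsewhere in the nuclear genome was 2.48% for CBF1, 3.95% for CBF2, 0.596% for CBF3 and 0.259% for ORA47 and 0 for the other 6. ERF105 lies wholly within exons of AT5G51180 on the opposite strand, which had 770 to 1812 counts per library. The setting for strand in counting is not given in the sources used here, so the values of ERF105 are uncertain. ORA47 shares 102 bases with AT1G74929, which had 4 to 18 counts, and CBF3 shares 29 bases with AT4G07385, which had 0 to 7.

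Levels are given as CPM, counts scaled to the size of each library. Between 60138933 and 81494915 reads per library were counted in genes. DXO1 (AT4G17620) stood at 8.63 to 8.93 CPM in Col-0, 1.29 to 1.73 in dxo1-2, 2.97 to 3.13 in the double mutant and 9.62 to 10.4 in xrn3-8. XRN3 (AT1G75660) stood at 51.4 to 52.1 CPM in Col-0, 58.3 to 59.6 in dxo1-2, 38.1 to 44.1 in the double mutant and 20.1 to 23.0 in xrn3-8, and the double mutant held more XRN3 RNA than xrn3-8 (log2 0.90 ± 0.08, edgeR adjusted p = 7.64e-07). The 4 leaf markers RBCS1A, CAB3, RCA and LHCA1 summed to 9651 to 10649 CPM in Col-0, 7529 to 9475 in dxo1-2, 4115 to 5478 in the double mutant and 6090 to 7556 in xrn3-8. Against Col-0, 4 of 4 were called lower in xrn3-8 (median log2 -0.71; 3 of 4 without xrn3-8 replicate 2) and 4 of 4 in the double mutant (-1.15), and between the double mutant and xrn3-8 3 of 4 were lower (-0.54). These are the comparisons in which members are given with p values below, and the part of the leaf marker levels in the members' values was not tested. Of 4 root markers PYK10 reached 67.7 to 191 CPM, PER72 reached at most 0.341, and EXPA7 and COBL9 had 0 to 6 counts. The flower markers AP3, AG and AP1 stayed under 0.6 CPM, while PI reached 1.77 to 3.69 CPM in xrn3-8 and at most 1.06 elsewhere.

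A single library stood apart for these genes. xrn3-8 replicate 2 held the lowest level of its genotype in 10 of the 10 members, with a median deviation of -0.68 on the log2 scale from the mean of the genotype, against 0.003 over 13461 genes of at least 5 CPM. It was also the library with the most gene counts, 81494915, and the largest share of them from the plastid, 53.5%. Members' values from comparisons with xrn3-8 are therefore given with and without that library. The call of MYB15 below also depended on it. Why it stood low was not tested.

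ORA47 was the member with the lowest value in the interaction, given below. Its 3 Col-0 libraries held 5.78, 4.79 and 5.94 CPM, and the dxo1-2 libraries held 64.1, 62.0 and 37.7 CPM. In xrn3-8 it stood at 13, 5.20 and 15.1 CPM, and in the double mutant at 8.02, 7.66 and 11.1 CPM. All dxo1-2 libraries were above all others, the double mutant was above Col-0 without overlap, and xrn3-8 overlapped both Col-0 and the double mutant through its replicate 2. The mean was 9.93-fold higher in dxo1-2 than in Col-0 (log2 3.31 ± 0.32, SE) but the double mutant was 6.12-fold lower than dxo1-2 (log2 -2.61 ± 0.31). These values are among those that chose ORA47.

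The interaction that chose ORA47 uses all 12 libraries. The p values of ORA47 in this paragraph, and of the other members below, are therefore a description too. Against Col-0, ORA47 was 2.01-fold higher in xrn3-8 (log2 1.01 ± 0.31, edgeR adjusted p = 0.0209). Without xrn3-8 replicate 2 the log2 change was 1.35 (adjusted p = 0.000345), but the call was lost without Col-0 replicate 2 (0.93, adjusted p = 0.0696), xrn3-8 replicate 1 (0.88, adjusted p = 0.0695) or xrn3-8 replicate 3 (0.72, adjusted p = 0.112). In the double mutant it was 1.62-fold above Col-0, which did not pass (log2 0.70 ± 0.31, adjusted p = 0.0798). That value passed when xrn3-8 replicate 2 was left out of the common fit (0.70, adjusted p = 0.00975). Between the double mutant and xrn3-8, ORA47 had a log2 difference of -0.31 ± 0.30 (adjusted p = 0.425), which became -0.65 (adjusted p = 0.0225) without xrn3-8 replicate 2.

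The 3 CBF genes, the activators of the cold regulon, were scarce in Col-0. CBF1 held 0.622, 1.23 and 0.534 CPM there (30 to 77 counts), 5.84, 5.97 and 4.59 in dxo1-2, 2.69, 1.33 and 1.68 in the double mutant and 2.73, 0.834 and 2.19 in xrn3-8. The dxo1-2 libraries were the highest for CBF1, and xrn3-8 replicate 2 was again within the range of Col-0. CBF2 was at 1.67, 2.19 and 1.99 CPM in Col-0, 11.3, 12.2 and 9.10 in dxo1-2, 5.71, 3.72 and 5.79 in the double mutant and 4.36, 1.91 and 4.21 in xrn3-8. For CBF2 the order was dxo1-2, the double mutant, xrn3-8 and Col-0, with dxo1-2 apart from the rest and xrn3-8 overlapping both of its neighbours in that order.

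CBF3 followed another order. Its levels were 0.589, 0.367 and 0.320 CPM in Col-0 (18 to 36 counts), 4.36, 4.83 and 3.88 in dxo1-2, 1.29, 1.91 and 3.99 in the double mutant and 0.407, 0.205 and 0.542 in xrn3-8. Col-0 and xrn3-8 overlapped at the bottom, and double mutant replicate 3 reached into the range of dxo1-2. As a description, the dxo1-2 means were above Col-0 by 6.83-fold for CBF1, 5.56-fold for CBF2 and 10.2-fold for CBF3.

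CBF3 was 6.22-fold higher in the double mutant than in xrn3-8 (log2 2.64 ± 0.41, edgeR adjusted p = 0.000163), whereas CBF1 did not pass there (log2 -0.00 ± 0.38, adjusted p = 0.997) and CBF2 did not pass (log2 0.54 ± 0.25, adjusted p = 0.1). With xrn3-8 replicate 2 left out these values were 2.32 (adjusted p = 0.000942), -0.37 (adjusted p = 0.388) and 0.25 (adjusted p = 0.340). CBF2 passed without double mutant replicate 2 (0.73, adjusted p = 0.0396). Leaving out double mutant replicate 3, the highest for CBF3, gave a log2 change of 2.06 for that gene. Whether CBF3 differed from CBF1 in this change was not tested.

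In xrn3-8 against Col-0, CBF1 was 2.38-fold higher (log2 1.25 ± 0.41, adjusted p = 0.0289) and CBF2 1.79-fold higher (log2 0.84 ± 0.27, adjusted p = 0.0276), while CBF3 had a log2 change of -0.16 ± 0.47 (adjusted p = 0.829). When xrn3-8 replicate 2 was left out the values were 1.62, 1.13 and 0.16. The CBF1 call was lost without Col-0 replicate 1 (1.11, adjusted p = 0.0957), Col-0 replicate 3 (1.05, adjusted p = 0.105), xrn3-8 replicate 1 (0.92, adjusted p = 0.126) or xrn3-8 replicate 3 (1.14, adjusted p = 0.0845). The CBF2 call was lost without the same libraries, at log2 changes of 0.75, 0.86, 0.65 and 0.67 in that order (adjusted p = 0.0913, 0.0610, 0.109 and 0.110).

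In the double mutant against Col-0, CBF3 rose 5.59-fold (log2 2.48 ± 0.41, adjusted p = 0.000227), CBF2 rose 2.60-fold (log2 1.38 ± 0.27, adjusted p = 0.000781) and CBF1 rose 2.38-fold (log2 1.25 ± 0.41, adjusted p = 0.0214). The CBF1 call was lost without Col-0 replicate 1 (1.11, adjusted p = 0.0756), Col-0 replicate 3 (1.05, adjusted p = 0.0828) or double mutant replicate 1 (0.91, adjusted p = 0.107). All 3 CBF genes had every double mutant library above every Col-0 library, and nothing is read from this. The share of all genes without overlap is not given for this comparison, in which 24.4% of them were called higher.

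**Figure D2:**
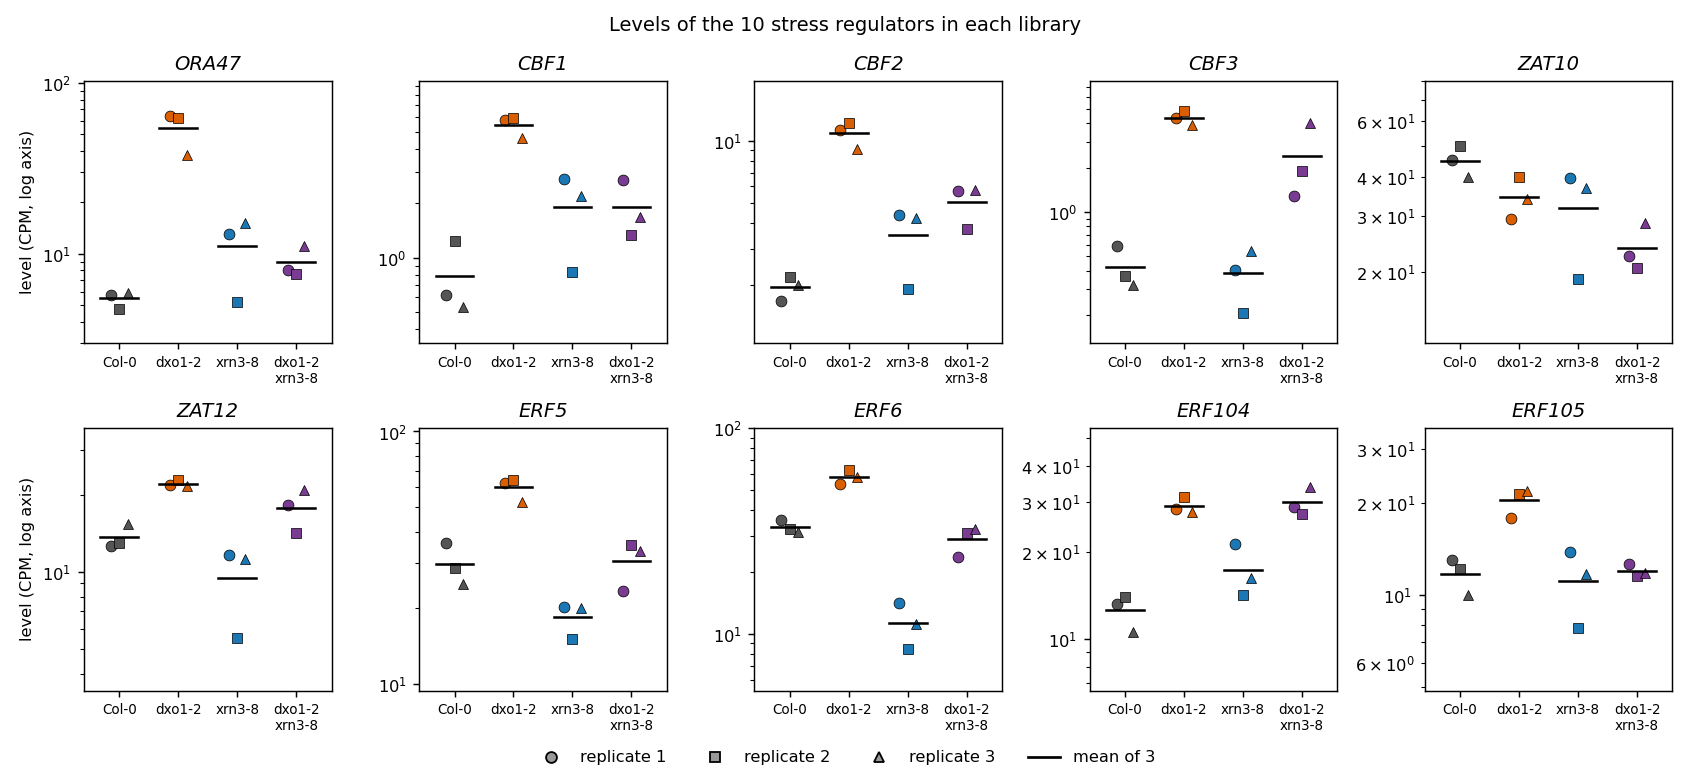
Levels in CPM on a log axis of the 10 genes in each of the 12 libraries, with 1 panel per gene, replicate numbers as symbols and the mean of 3 libraries as a bar. In 9 of the panels dxo1-2 lies above Col-0 without overlap, ZAT10 being the exception (28.3% of all tested genes did so), and xrn3-8 replicate 2 is the lowest xrn3-8 library in every panel.

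ZAT10, a zinc finger repressor also called STZ, was the most abundant member in Col-0 and the one member whose mean was lower in dxo1-2 than in Col-0. It held 45.0, 50.1 and 39.8 CPM in Col-0, 29.4, 39.9 and 34.0 in dxo1-2, 22.5, 20.6 and 28.6 in the double mutant and 39.6, 19.0 and 36.8 in xrn3-8. The double mutant lay below Col-0 and dxo1-2 without overlap. ZAT10 fell 1.88-fold in the double mutant against Col-0 (log2 -0.91 ± 0.21, edgeR adjusted p = 0.00302). Against Col-0 in xrn3-8 it had a log2 change of -0.50 ± 0.21 (adjusted p = 0.0835), or -0.24 (adjusted p = 0.242) without xrn3-8 replicate 2. Between the double mutant and xrn3-8 the value was -0.41 ± 0.21 (adjusted p = 0.136), and it passed without xrn3-8 replicate 2 (-0.67, adjusted p = 0.00256).

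ZAT12, also called RHL41, is a zinc finger protein of the response to reactive oxygen. It stood at 12.6, 12.9 and 15.3 CPM in Col-0, 21.7, 22.8 and 21.6 in dxo1-2, 18.3, 14.1 and 20.8 in the double mutant and 11.6, 5.49 and 11.2 in xrn3-8. xrn3-8 was the lowest genotype and dxo1-2 the highest, each without overlap with its neighbour, while the double mutant overlapped Col-0. ZAT12 was 1.88-fold higher in the double mutant than in xrn3-8 (log2 0.91 ± 0.21, adjusted p = 0.00315), and the log2 value was 0.64 (adjusted p = 0.00267) without xrn3-8 replicate 2. Against Col-0 it did not pass in xrn3-8 (log2 -0.53 ± 0.21, adjusted p = 0.0687) or in the double mutant (log2 0.38 ± 0.21, adjusted p = 0.155). Without xrn3-8 replicate 2 the value for xrn3-8 was -0.26 (adjusted p = 0.181), and that for the double mutant passed at 0.38 (adjusted p = 0.0200).

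ERF6, a kinase substrate of oxidative stress and defence signalling, had the largest fall of the set in xrn3-8. Col-0 held 36.0, 32.3 and 31.3 CPM, dxo1-2 held 53.7, 62.6 and 57.9, xrn3-8 held 14.2, 8.48 and 11.2, and the double mutant held 23.6, 30.8 and 32.2. xrn3-8 was below and dxo1-2 above all other libraries, and the double mutant overlapped Col-0. ERF6 fell 2.95-fold in xrn3-8 against Col-0 (log2 -1.56 ± 0.16, edgeR adjusted p = 5.18e-06). It rose 2.56-fold in the double mutant against xrn3-8 (log2 1.36 ± 0.16, adjusted p = 1.18e-05). With xrn3-8 replicate 2 left out these values were -1.39 and 1.19. The same xrn3-8 libraries enter both comparisons, so the fall and the rise are not independent, here or for ERF5 below.

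ERF5, a regulator of chitin and leaf growth responses, also had its highest levels in dxo1-2 and its lowest in xrn3-8. It held 36.0, 28.7 and 24.9 CPM in Col-0, 62.7, 64.4 and 52.7 in dxo1-2, 23.4, 35.3 and 33.6 in the double mutant and 20.2, 15 and 20.0 in xrn3-8. The double mutant again overlapped Col-0, and xrn3-8 was below all other libraries. ERF5 fell 1.62-fold in xrn3-8 against Col-0 (log2 -0.70 ± 0.17, adjusted p = 0.00485), and rose 1.67-fold in the double mutant against xrn3-8 (log2 0.74 ± 0.17, adjusted p = 0.00247). Without xrn3-8 replicate 2 the values were -0.57 (adjusted p = 0.0220) and 0.62 (adjusted p = 0.0123). For the double mutant against Col-0 neither passed, with ERF5 at log2 0.04 ± 0.16 (adjusted p = 0.856) and ERF6 at -0.20 ± 0.15 (adjusted p = 0.296).

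ERF104, a substrate of MPK6 in flagellin and ethylene responses, was higher than Col-0 in each mutant. It held 13.2, 14 and 10.6 CPM in Col-0, 28.3, 31.1 and 27.6 in dxo1-2, 28.7, 27.3 and 33.8 in the double mutant and 21.4, 14.2 and 16.3 in xrn3-8. The double mutant and dxo1-2 overlapped at the top, and xrn3-8 lay between them and Col-0 without overlap. The double mutant was 2.38-fold above Col-0 (log2 1.25 ± 0.14, adjusted p = 7.7e-06) and 1.73-fold above xrn3-8 (log2 0.79 ± 0.14, adjusted p = 0.000444, or 0.67 without xrn3-8 replicate 2). In xrn3-8 against Col-0 it was 1.37-fold higher (log2 0.46 ± 0.14, adjusted p = 0.0223, or 0.58 without xrn3-8 replicate 2). That call was lost without Col-0 replicate 3 (0.36, adjusted p = 0.0942) or xrn3-8 replicate 1 (0.28, adjusted p = 0.119).

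ERF105, a cold-responsive factor, stood at 13.1, 12.2 and 9.99 CPM in Col-0, 17.8, 21.4 and 21.9 in dxo1-2, 12.6, 11.5 and 11.8 in the double mutant and 13.8, 7.80 and 11.7 in xrn3-8. Only dxo1-2 stood apart from the other 3 genotypes, which overlapped. It passed in none of the 3 comparisons that leave out the dxo1-2 libraries, with log2 values of -0.08 ± 0.17 for xrn3-8 against Col-0 (adjusted p = 0.739), 0.03 ± 0.17 for the double mutant against Col-0 (adjusted p = 0.908) and 0.11 ± 0.16 for the double mutant against xrn3-8 (adjusted p = 0.624). Without xrn3-8 replicate 2 the first and last of these were 0.12 and -0.09. Its place inside a gene on the other strand applies to all these values.

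Of the ERF genes, ERF5, ERF6 and ERF104 lie near a relative of the same family. ERF1A (AT4G17500) is next to ERF6 among protein-coding genes, and was 1.97-fold higher in the double mutant than in xrn3-8 (log2 0.98 ± 0.24, edgeR adjusted p = 0.00484), in the direction of ERF6. DEWAX (AT5G61590), next to ERF104 on the same strand with 832 bases between them, had a log2 difference of 0.14 ± 0.20 there (adjusted p = 0.612). ERF2 (AT5G47220), which lies 2 places from ERF5, was 1.78-fold lower in xrn3-8 than in Col-0 (log2 -0.83 ± 0.23, adjusted p = 0.0106) and did not pass between the double mutant and xrn3-8 (log2 -0.07 ± 0.23, adjusted p = 0.822).

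Across the set, dxo1-2 against Col-0 gave 9 of 10 members higher and 0 lower, where 21.5% of all tested genes were called higher and 20.7% lower. Since that contrast was used in the choice, nothing is read from the count. The median log2 change of the members there was 1.104, beside 0.01 over all genes. In the double mutant against dxo1-2, 6 of 10 were lower and 0 higher, where 15.5% and 16.4% of all genes were called, and the median was -0.91. In the interaction, 3 members were lower and 0 higher, where 8.67% and 12.2% of all genes were called, and nothing is read from these counts either, since the interaction and the dxo1-2 libraries entered the choice. The interaction compares the double mutant, on the log2 scale, with the added effects of both single mutations, and a value under 0 means less than their sum. It was -3.62 ± 0.43 for ORA47, -2.77 ± 0.55 for CBF1, -1.93 ± 0.37 for CBF2 and -0.71 ± 0.59 for CBF3, against -0.03 ± 0.30 for ZAT10, 0.22 ± 0.30 for ZAT12, -0.26 ± 0.23 for ERF5, 0.55 ± 0.22 for ERF6, -0.41 ± 0.20 for ERF104 and -0.68 ± 0.23 for ERF105.

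The double mutant against xrn3-8 shares no library with dxo1-2 against Col-0, although both enter the interaction. The interaction was used in choosing the set, so the counts here are a description and nothing is read from them. Here 5 of 10 members were higher (CBF3, ZAT12, ERF5, ERF6 and ERF104) and 0 lower, where 22.9% of all tested genes were called higher and 20.5% lower. The other 5 members did not pass, at edgeR unadjusted p between 0.0508 and 0.995. The median log2 change of the 10 was 0.64, beside 0.001 over all genes. The libraries did not overlap in the same 5 members, and 50.9% of all genes were without overlap. Without xrn3-8 replicate 2, ORA47 and ZAT10 passed as lower, so the count became 5 higher and 2 lower.

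For xrn3-8 against Col-0, 4 members were higher (ORA47, CBF1, CBF2 and ERF104) and 2 lower (ERF5 and ERF6), where 16.3% of all genes were called higher and 18.1% lower. The median of the 10 was -0.12, beside -0.002 over all genes. The count of 4 higher was 0 without xrn3-8 replicate 1, 1 without Col-0 replicate 3 or xrn3-8 replicate 3, and 2 without Col-0 replicate 1. For the double mutant against Col-0, 4 were higher (the 3 CBF genes and ERF104) and ZAT10 was lower, where 24.4% and 22% of all genes were called, and the median was 0.54. The count of 4 higher became 6 without xrn3-8 replicate 2, with ORA47 and ZAT12 added. These comparisons share the Col-0 libraries with the contrast that chose ORA47. Their libraries also enter the interaction, so these counts are a description.

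**Figure D3:**
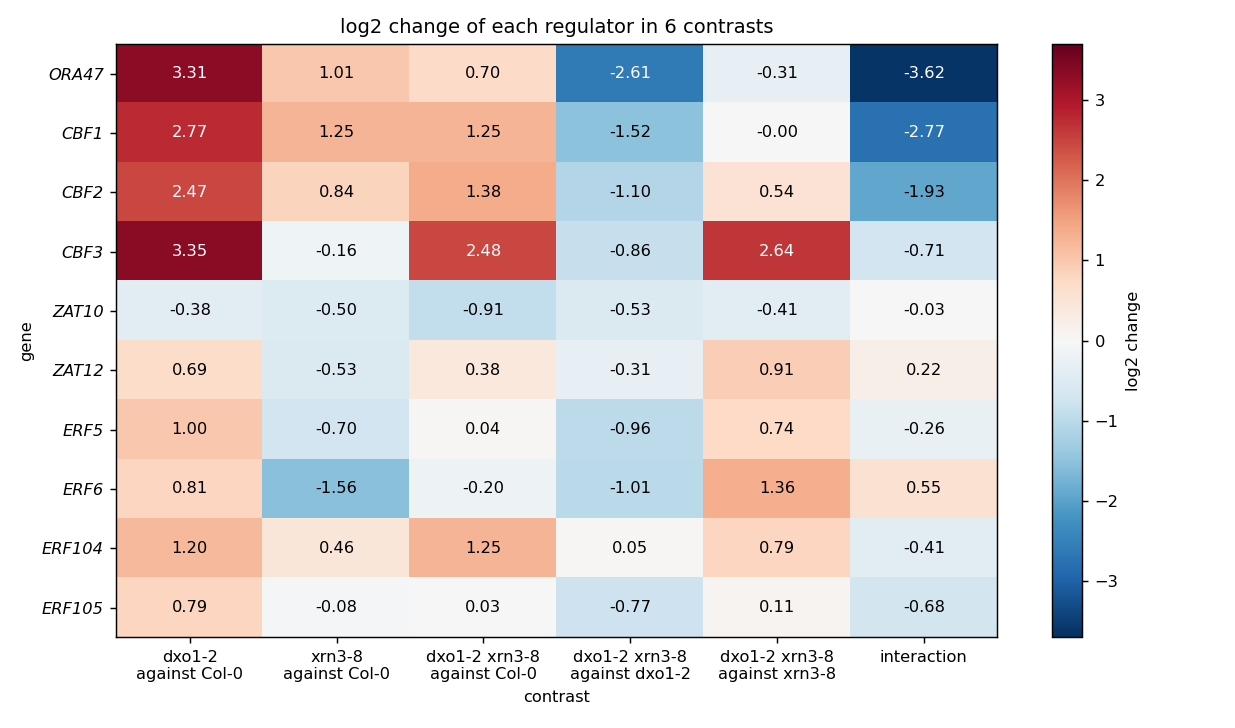
log2 changes of the 10 genes in the 5 comparisons of genotypes and in the interaction, with the value printed in each cell and red for higher and blue for lower. ORA47, CBF1 and CBF2 have the lowest values in the interaction, from -3.62 to -1.93, and ERF6 runs from -1.56 in xrn3-8 against Col-0 to 1.36 in the double mutant against xrn3-8.

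Levels of different genes were compared per kilobase of exon. In Col-0, ZAT10 led with 34.5 ± 3.97 CPM per kilobase (SD, n = 3), followed by ERF6 with 24.8 ± 1.84 and ERF5 with 22.9 ± 4.33, whose spreads overlapped. CBF3 was the lowest at 0.306 ± 0.103, below CBF1 at 0.653 ± 0.311 and CBF2 at 1.98 ± 0.264. In dxo1-2 the order changed, and ERF5 at 46.1 ± 4.85, ORA47 at 45.2 ± 12.2 and ERF6 at 43.4 ± 3.34 CPM per kilobase stood within each other's spread. ORA47 had been at 4.55 ± 0.517 in Col-0, below all 4 ERF genes, of which ERF104 was the lowest at 9.06 ± 1.29.

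The members varied between libraries of 1 genotype more than most genes did. For each member, 85.7 to 99.8% of the other genes varied less. The pooled SD of log2 CPM within genotypes had a median of 0.34 over the 10 members, beside 0.13 over 13461 genes of at least 5 CPM. It was 0.50 for ORA47, 0.41 for CBF2, 0.34 for each of the ZAT genes and 0.21 to 0.25 for the ERF genes. CBF1 at 0.61 and CBF3 at 0.57 had a mean under 5 CPM, where counting error is larger. The deviations also ran together, since after subtracting the genotype means the correlation over the 12 libraries was above 0 in 45 of 45 pairs of members, with a median of 0.66 and a range of 0.15 to 0.93. These pairs share libraries and scaling, and the value is a description. With the genotype differences kept in, the median was 0.74 over all pairs, 0.88 over the 6 pairs among ORA47 and the CBF genes and 0.67 over the 6 ERF pairs, with a lowest value of -0.37. xrn3-8 replicate 2, the lowest of its genotype in all 10 members (median deviation -0.68), enters the SDs and both sets of correlations. Its part in them was not tested.

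**Figure D4:**
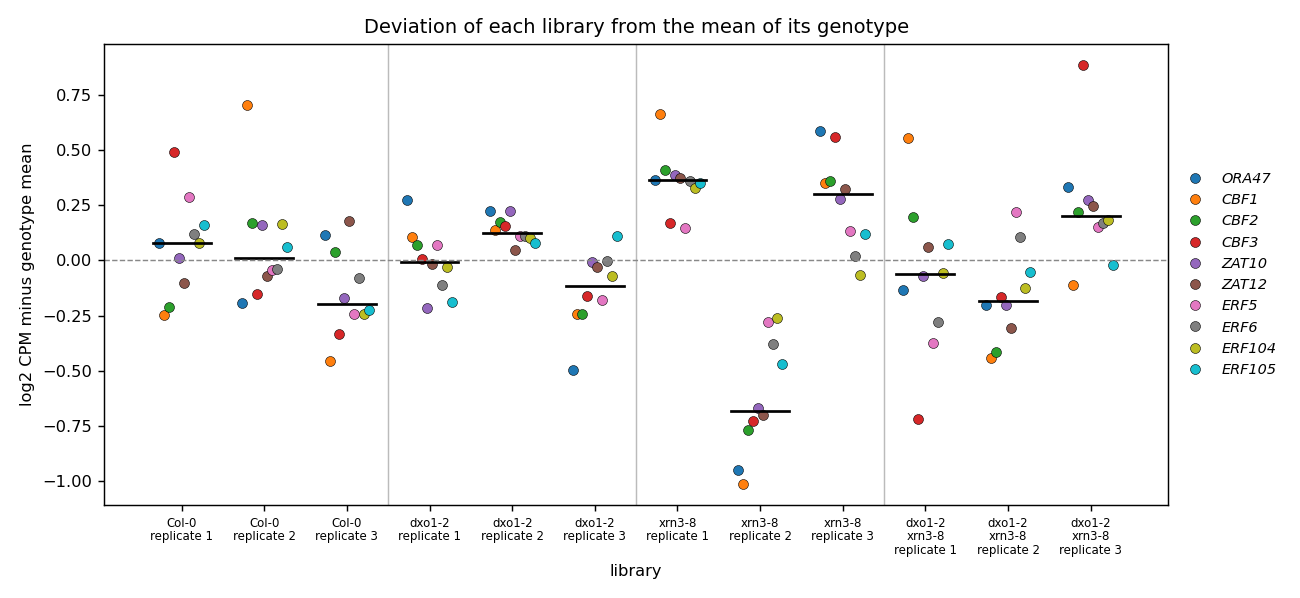
Deviation of log2 CPM from the mean of the genotype for the 10 genes in each library, with 1 point per gene and a bar at the median of the library. The medians lie between -0.20 and 0.36 in 11 libraries and at -0.68 in xrn3-8 replicate 2.

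The same library was low in other stress lists but not in all. Of 17 other early wound, touch and elicitor genes, 12 had their lowest xrn3-8 level in replicate 2 (median deviation -0.36). Of 9 relatives of the ZAT genes it was 8 (-0.35), of 8 tested DREB relatives 6 (-0.54) and of 9 tested ERF relatives 6 (-0.52). Of 7 genes tied to ZAT12 or oxidative stress it was 6 (-0.29), and of 8 jasmonate synthesis genes it was 6 (-0.23). The CBF target genes went the other way, with 1 of 10 lowest and 8 of 10 highest in that library (0.21). Morning clock genes had a median deviation of 0.07 and afternoon and evening clock genes one of 0.0002. Other libraries stood low in some lists too. Within its genotype, dxo1-2 replicate 1 was lowest in 13 of the 17 early genes (-0.21) and 8 of 8 jasmonate synthesis genes (-0.46). Col-0 replicate 1 and double mutant replicate 2 were each lowest in 7 of those 8. The counts for these 2 lists therefore do not single out xrn3-8 replicate 2.

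CBF target genes, the cold-regulated genes with CRT/DRE elements, were read beside the CBF genes. Of 10 listed, 8 rose and 0 fell in xrn3-8 against Col-0 (median log2 0.91), 9 rose and 0 fell in the double mutant against Col-0 (1.62), and 5 rose and 1 fell in the double mutant against xrn3-8 (0.42). Over all tested genes the shares called higher were 16.3%, 24.4% and 22.9% in that order, and those called lower 18.1%, 22% and 20.5%. The first count of 8 was 6 without xrn3-8 replicate 2, and the last count of 5 was 3 under upper quartile scaling. In dxo1-2 against Col-0, where the CBF genes had their highest levels, 4 were higher and 2 lower, where 21.5% and 20.7% of all genes were called, with a median of 0.38. KIN1, a small hydrophilic cold protein, was at 1.05 ± 0.447 CPM in Col-0 and 6.59 ± 0.758 in xrn3-8 (log2 2.66 ± 0.34, edgeR adjusted p = 3.63e-05). RD29A went from 45.9 ± 4.63 to 168 ± 45.3 CPM (log2 1.87 ± 0.24, adjusted p = 4.41e-05). LTI30, a dehydrin, went from 19.7 ± 5.91 CPM in xrn3-8 to 80.9 ± 20.3 in the double mutant (log2 2.04 ± 0.26, adjusted p = 3.39e-05), and the dehydrin gene ERD10 from 211 ± 32 to 379 ± 16.9 (log2 0.84 ± 0.15, adjusted p = 0.000480).

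Jasmonate synthesis genes, the known targets of ORA47, were lower in the mutants. Of 8 listed, 8 were lower in dxo1-2 against Col-0 (median log2 -1.34), where ORA47 had its highest levels and 20.7% of all genes were called lower. In xrn3-8 against Col-0 6 fell and 0 rose (-1.52), in the double mutant against Col-0 8 fell (-1.97), and in the double mutant against xrn3-8 4 fell and 0 rose (-0.64). The shares of all genes called lower in these 3 comparisons were 18.1%, 22% and 20.5%. LOX3, a lipoxygenase gene, fell from 191 ± 41.2 CPM in Col-0 to 41.4 ± 7.58 in xrn3-8 (log2 -2.20 ± 0.24, adjusted p = 8.84e-06), and LOX4 from 159 ± 18.4 to 37.1 ± 12.6 (log2 -2.10 ± 0.25, adjusted p = 2.01e-05). LOX2 fell from 757 ± 133 CPM in xrn3-8 to 261 ± 66.9 in the double mutant (log2 -1.54 ± 0.19, adjusted p = 1.99e-05), and the allene oxide cyclase gene AOC2 from 262 ± 11.8 to 106 ± 12.8 (log2 -1.30 ± 0.15, adjusted p = 1.51e-05).

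**Figure D5:**
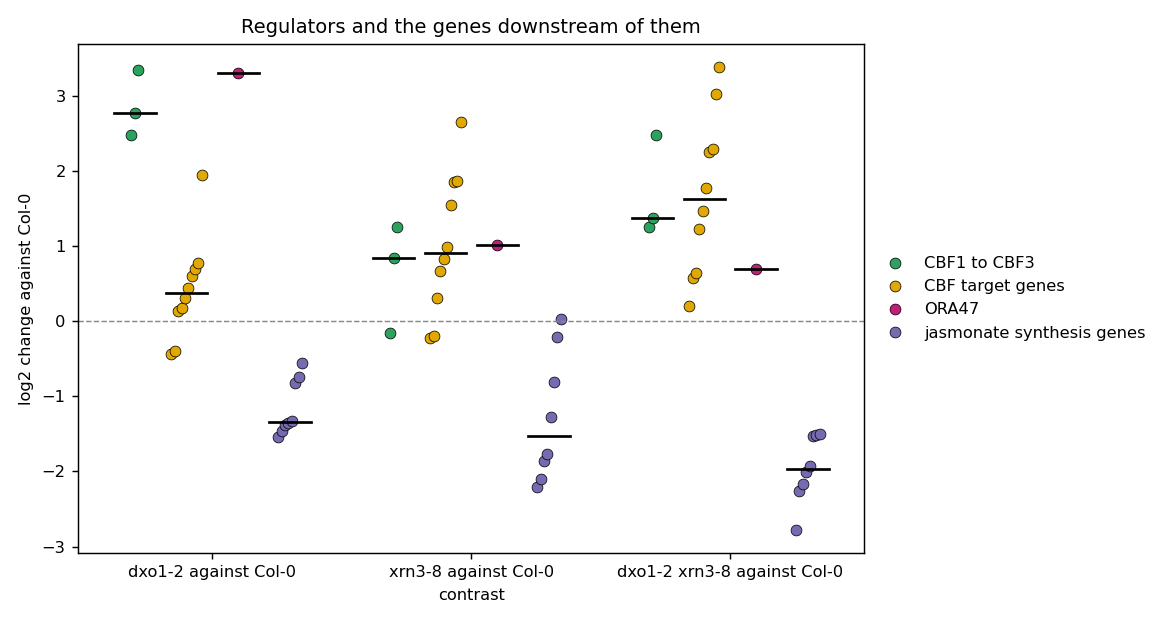
log2 changes against Col-0 in the 3 mutants for the CBF genes, 10 CBF target genes, ORA47 and 8 jasmonate synthesis genes, with 1 point per gene and a bar at the median of each group. In dxo1-2 the CBF genes lie at 2.47 to 3.35 with their targets at a median of 0.38, and ORA47 lies at 3.31 with the jasmonate synthesis genes at -1.34.

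Regulators known to act upstream of the CBF genes were also listed. Of 8 listed, 1 rose and 1 fell in xrn3-8 against Col-0, and 2 rose and 2 fell both in the double mutant against Col-0 and in the double mutant against xrn3-8. With 16.3% of all genes called higher and 18.1% lower in the first, 24.4% and 22% in the second and 22.9% and 20.5% in the third, these counts are near the shares over all genes, and nothing is read from them about the list. OST1, a kinase of cold and abscisic acid signalling, rose in xrn3-8 (log2 0.73 ± 0.12, edgeR adjusted p = 0.000418). CAMTA3, a calmodulin-binding activator of CBF2, fell there (log2 -0.30 ± 0.09, adjusted p = 0.0163), a call lost under upper quartile scaling (-0.22, adjusted p = 0.0605) and without Col-0 replicate 2 (-0.25, adjusted p = 0.0749), xrn3-8 replicate 1 (-0.26, adjusted p = 0.0601) or xrn3-8 replicate 3 (-0.28, adjusted p = 0.0556). ICE1, an activator of CBF3, was higher in the double mutant than in xrn3-8 (log2 0.41 ± 0.07, adjusted p = 0.000376). MYB15, a repressor of the CBF genes, was higher there too (log2 1.08 ± 0.40, adjusted p = 0.0410), and its call was lost when any of the xrn3-8 replicates 1 and 2 or the double mutant replicates was left out, at 0.67 to 1.22. It was also lost under upper quartile scaling (1.02, adjusted p = 0.0531), in the DESeq2 Wald test (1.07, adjusted p = 0.0811) and with only the compared genotypes (1.08, adjusted p = 0.0527).

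Relatives of the members were read in the same comparisons, where 16.3% of all genes were called higher and 18.1% lower in xrn3-8 against Col-0, and 22.9% and 20.5% in the double mutant against xrn3-8. Of 9 tested ZAT relatives, 0 rose and 7 fell in xrn3-8 against Col-0, and 4 rose and 1 fell in the double mutant against xrn3-8. The 7 became 5, and the 1 became 2, without xrn3-8 replicate 2. ZAT7 fell in the first (log2 -1.85 ± 0.23, adjusted p = 3.31e-05) and rose in the second (log2 1.48 ± 0.23, adjusted p = 0.000156), as ERF6 did. Both comparisons share the xrn3-8 libraries, so a fall and a rise are not independent, for ZAT7 or for the relatives below. Of 9 tested ERF relatives of 12 listed, 1 rose and 6 fell in xrn3-8 against Col-0, and 3 rose and 0 fell in the double mutant against xrn3-8. ERF15 stood at 22.8 ± 2.59 CPM in Col-0, 6.94 ± 0.334 in xrn3-8 and 23.8 ± 4.41 in the double mutant (log2 -1.71 ± 0.12, adjusted p = 2.83e-07, and 1.78 ± 0.12, adjusted p = 1.28e-07). Of 8 tested DREB relatives of 10 listed, 2 rose and 1 fell in xrn3-8 against Col-0, and 2 rose and 0 fell in the double mutant against xrn3-8, and nothing is read from these few genes about the list. DREB26 rose in the latter (log2 2.15 ± 0.30, adjusted p = 7.23e-05).

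Other lists are read against the same shares of all genes. These were 16.3% higher and 18.1% lower in xrn3-8 against Col-0, and 22.9% and 20.5% in the double mutant against xrn3-8. Since both comparisons share the xrn3-8 libraries, opposite changes in them are not independent. Of 17 other early wound, touch and elicitor genes, 1 rose and 12 fell in xrn3-8 against Col-0, among them WRKY53 (log2 -1.70 ± 0.14, edgeR adjusted p = 8.17e-07) and WRKY40 (log2 -1.66 ± 0.17, adjusted p = 6.55e-06), while 3 rose and 1 fell in the double mutant against xrn3-8. With xrn3-8 replicate 2 left out, 3 rose and 11 fell in the first comparison and 3 rose and 6 fell in the second. Of 7 genes tied to ZAT12 or oxidative stress, 4 rose and 1 fell in the double mutant against xrn3-8, and the alcohol dehydrogenase gene ADH1 rose from 14 ± 3.31 to 43.6 ± 10.2 CPM (log2 1.64 ± 0.24, adjusted p = 7.72e-05). Clock genes were read because the CBF genes are gated by the clock. Of 6 morning genes 5 fell and 0 rose in xrn3-8 against Col-0, and 4 rose and 0 fell in the double mutant against xrn3-8, among them LHY (log2 1.63 ± 0.18, adjusted p = 7.92e-06). Of 7 afternoon and evening genes 7 rose in xrn3-8 against Col-0, among them TOC1 from 32.2 ± 0.562 to 84.2 ± 3.02 CPM (log2 1.39 ± 0.09, adjusted p = 9.58e-08), and 1 rose in the double mutant against xrn3-8. The part of these clock levels in the levels of the 10 members was not tested.

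The genes most like ORA47 over the 12 libraries, by Pearson correlation of log2 CPM among 13453 genes of at least 5 CPM, were TCP15 (r = 0.973), VIM1 (r = 0.960), AT5G02890 (r = 0.955), CR4 (r = 0.953) and AT3G56370 (r = 0.951). TCP15, a growth-regulating transcription factor, stood at 5.56 ± 0.489 CPM in Col-0, 9.64 ± 1.12 in dxo1-2, 6.18 ± 0.615 in the double mutant and 6.31 ± 0.534 in xrn3-8, so the pattern was like that of ORA47 with a smaller range. The genes most like the standardised mean of the 10 members were AN (r = 0.971), COL3 (r = 0.971), LP1 (r = 0.970), AT5G05360 (r = 0.965) and AT1G63850 (r = 0.964). LP1, a lipid transfer protein gene, stood at 225 ± 30.3 CPM in Col-0, 434 ± 51.8 in dxo1-2, 297 ± 37.0 in the double mutant and 190 ± 33.7 in xrn3-8. These correlations describe 4 genotypes with 3 libraries each, and dxo1-2 was the highest genotype for each of these genes whose levels are given.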

How the data were processed

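The authors deposited whole-number read counts per gene for each library, with no normalisation. Per the submitters' processing notes, HISAT2 2.0.4, SAMtools 1.1, HTSeq 0.6.0 and TAIR10 were used; the annotation and the strand setting are not given in the sources used here. Per the labels' protocols, libraries were stranded after removal of ribosomal RNA. Lines for reads not counted in a gene (6.99 to 11.1% without a feature, per file) stayed out of library sizes. Counts were tested with edgeR 4.0.16 in R 4.3.3 (quasi-likelihood F-test, TMM, filterByExpr with a minimum count of 10 and total of 15), with all 12 libraries in 1 fit and Benjamini-Hochberg adjustment over 21974 genes. Calls were made at an adjusted p under 0.05. CPM was computed from these counts with TMM-scaled library sizes, and ± is the SD over 3 libraries for levels and the SE for log2 changes. The design text calls the 3 replicates biological. Replicate numbers did not pair the libraries. On counts simulated for dxo1-2 against Col-0 over 20986 genes, 97% of 200 genes changed by 1.5 on the log2 scale were recovered, with 4.90% of calls false. CBF1 (0.795 CPM in Col-0) and CBF3 (0.425) lie below the Col-0 levels at which changes were simulated. Far fewer genes were changed there than the data called, and no library was made to stand apart. The rates therefore do not carry over to the data as they are. DESeq2 1.42.0 and other scalings, filters and left-out libraries were tried.

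The 10 members and the gene lists were chosen with earlier results of these data known. Named from the lists were the 2 genes per list with the largest log2 change among those called at 5 CPM or more, in xrn3-8 against Col-0 and in the double mutant against xrn3-8, and of these the text gives the ones that bear on the members. Genes near a member and the 5 most correlated genes were added. Gene names and sequences come from RefSeq TAIR10.1.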

Additional observations from a re-analysis of the deposited data

Results flagged for a closer look

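The interaction was lowest in 3 of the members, at -3.62 on the log2 scale for ORA47, -2.77 for CBF1 and -1.93 for CBF2. Next lowest were CBF3 (-0.71) and ERF105 (-0.68), and no boundary between these and the first 3 was tested. ERF105 was called lower too in several other settings, given below. For each of the first 3, the log2 change from Col-0 in the double mutant was smaller than the sum of those in the single mutants. The interaction was used in choosing the set, so these values are a description, and no test is given. The levels in xrn3-8 enter each of these values, and xrn3-8 replicate 2 was the lowest library of its genotype for all 3 genes. Without that library the values were further below 0, at -3.965 for ORA47, -3.14 for CBF1 and -2.23 for CBF2.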

How the results depend on the processing

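Every comparison was repeated with DESeq2 size factors in edgeR, upper quartile scaling, nuclear genes only, no filter on low counts, the DESeq2 Wald test, only the compared genotypes, a replicate block, and with each of the 12 libraries left out. In the settings that keep all libraries or drop whole genotypes, 393 log2 values of members kept their direction and their side of the threshold, 16 passed that had not, and 1 turned direction, CBF1 in the double mutant against xrn3-8, at 0.0066 with no filter. The count of members lower in dxo1-2 than in Col-0 became 1 with only the compared genotypes, through ZAT10. That of members lower in xrn3-8 than in Col-0 became 4 with no filter, through ZAT10 and ZAT12. ORA47 in the double mutant against Col-0 passed with no filter (0.72, edgeR adjusted p = 0.0336) and with only the compared genotypes (0.69, adjusted p = 0.00608). In the interaction, ERF105 passed as lower with DESeq2 size factors (-0.70), upper quartile scaling (-0.79), nuclear genes only, no filter and the DESeq2 Wald test. It also passed there without Col-0 replicate 1, xrn3-8 replicate 2 or dxo1-2 replicate 1. Calls in the interaction and in comparisons with the dxo1-2 libraries are a description, since those values entered the choice of the members. All other calls of the members are a description too, since the interaction uses every library.

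With 1 library left out, 663 values stayed, 17 lost and 17 gained a call, and 23 turned direction. The ranges of counts were 8 to 9 higher and 0 to 1 lower for dxo1-2 against Col-0, 0 to 4 and 2 to 4 for xrn3-8 against Col-0, 3 to 6 and 1 to 1 between double mutant and Col-0, 0 to 0 and 6 to 8 against dxo1-2, 5 to 6 and 0 to 2 against xrn3-8, and 0 to 1 and 3 to 4 for the interaction. Values that turned direction were, with their ranges, CBF3 (-0.51 to 0.16) and ERF105 (-0.27 to 0.12) in xrn3-8 against Col-0, ERF5 (-0.070 to 0.21) and ERF105 (-0.065 to 0.12) between double mutant and Col-0, ERF104 (-0.060 to 0.11) against dxo1-2, CBF1 (-0.37 to 0.33) and ERF105 (-0.091 to 0.29) against xrn3-8, and ZAT10 (-0.29 to 0.16) and ZAT12 (-0.054 to 0.39) in the interaction. The cause was not tested.

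Replicate numbers did not pair the libraries, since over 18 pairs with the same number the correlation of deviations ran from -0.12 to 0.15, with 2 pairs over 0.1. The replicate block gave 3 members lower in xrn3-8 against Col-0 in place of 2, through ZAT12 (-0.57, adjusted p = 0.0313), and changed no other call among the members. In xrn3-8 against Col-0, upper quartile scaling changed the calls over all genes from 3585 higher and 3981 lower to 4613 and 3153. It moved the median interaction of all genes from 0.005 to -0.10 on the log2 scale and the calls of the interaction from 2678 higher and 1906 lower to 2000 and 2886. Counts of the other gene lists without xrn3-8 replicate 2 were added after seeing the data. CBF3 had as few as 16 counts in a library and CBF1 as few as 30, which limits what small differences can show.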

Other observations

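The values here were chosen after they were seen. AT1G19210, a DREB relative with few reads, stood highest in the same genotype as ORA47. It held 0 to 0.196 CPM in Col-0, 0.810 to 1.97 in dxo1-2, 0.235 to 0.599 in the double mutant and 0.141 to 0.832 in xrn3-8, with 11 counts or fewer in each Col-0 library. The dxo1-2 libraries lay above all Col-0 and double mutant libraries.

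APX2, a cytosolic ascorbate peroxidase gene listed with ZAT12, had 0 counts in all 3 Col-0 libraries and 122 to 141 counts in the xrn3-8 libraries. It had 4 to 17 counts in dxo1-2 and 11 to 15 in the double mutant. The xrn3-8 libraries, in which ZAT12 had its lowest levels, were the highest for APX2, and the double mutant lay near dxo1-2.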
